A study of Mus musculus with 24 samples.

Results

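Urethane (ethyl carbamate) is converted by oxidation to vinyl carbamate and then to an epoxide that binds DNA, and it is split by esterases to ethanol, ammonia and carbon dioxide. The genes described here encode 10 proteins of these routes: the cytochromes P450 Cyp2e1, Cyp2f2, Cyp2b10, Cyp2a5, Cyp4b1 and Cyp1a1, their electron donor Por, the epoxide hydrolase Ephx1 and the carboxylesterases Ces2e and Ces1d. They were chosen by gene symbol and are measured by 16 of the 25697 probes, for 10 of 17910 named genes. The array lists Ces2e as Ces5 and Ces1d as Ces3; RefSeq gives Ces3 as an older symbol of both Ces1d and Ces3a, so that the identity of the Ces1d probe rests on its name.

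Lung parenchyma RNA of 24 mice was hybridised to Illumina bead arrays, each mouse on an array of its own. The mice belonged to AIRmax, selected for a strong acute inflammatory reaction, and to AIRmin, selected for a weak reaction. AIRmax urethane, AIRmax saline, AIRmin urethane and AIRmin saline mice numbered 6 each, 3 females and 3 males. Urethane mice had received 2 intraperitoneal injections of 1 mg per g of body weight 48 h apart, saline mice had received saline on the same schedule, and all were killed 21 days later. No genotype beyond the line, and no age, is given in the sources used here, and p-values measure the spread between these numbered mice.

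In the liver, CYP2E1 is the P450 known for urethane oxidation in mice, and it draws electrons from NADPH through P450 oxidoreductase, the product of Por. In mouse lung the club cells of the bronchioles are rich in CYP2F2, CYP2B10 and CYP4B1, which oxidize inhaled and circulating compounds. Microsomal epoxide hydrolase, the product of Ephx1, opens epoxides to diols, and carboxylesterases hydrolyse esters and carbamates.

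The promoter windows of 3 genes are shown. Ephx1 and Ces2e were the members called higher after urethane, and Cyp2b10 was the member called between the lines over all mice. They run from 250 bases before to 50 bases after the start site, from RefSeq on GRCm38.p6, at chr1:181017520-181017819 (minus strand) for Ephx1, chr8:104926010-104926309 (plus strand) for Ces2e and chr7:25897408-25897707 (plus strand) for Cyp2b10. Capitals mark every match, on either strand, to the TATA box TATAAA, the GC box GGGCGG, the AHR core GCGTG, the antioxidant response core TGACNNNGC or the p53 site decamer.
Ephx1: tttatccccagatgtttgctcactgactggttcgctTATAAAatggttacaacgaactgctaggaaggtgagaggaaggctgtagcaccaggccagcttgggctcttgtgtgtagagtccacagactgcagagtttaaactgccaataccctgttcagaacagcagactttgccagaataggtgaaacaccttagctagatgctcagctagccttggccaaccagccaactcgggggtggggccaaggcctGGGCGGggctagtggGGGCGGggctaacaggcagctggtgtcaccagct
Ces2e: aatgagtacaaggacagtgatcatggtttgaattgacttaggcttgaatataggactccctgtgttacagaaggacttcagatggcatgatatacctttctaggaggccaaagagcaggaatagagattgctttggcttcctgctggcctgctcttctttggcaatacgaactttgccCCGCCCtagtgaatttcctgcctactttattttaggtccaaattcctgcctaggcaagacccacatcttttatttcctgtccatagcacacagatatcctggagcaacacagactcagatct
Cyp2b10: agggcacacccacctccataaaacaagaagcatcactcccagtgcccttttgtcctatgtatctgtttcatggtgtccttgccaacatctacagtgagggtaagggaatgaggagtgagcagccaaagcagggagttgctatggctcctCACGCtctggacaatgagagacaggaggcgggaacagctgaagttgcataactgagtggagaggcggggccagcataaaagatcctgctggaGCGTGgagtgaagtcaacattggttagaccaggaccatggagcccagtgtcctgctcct
The Ephx1 window held GC boxes at positions 2 to 7 and 17 to 22 after the start site and a TATAAA match at -214 to -209. The Ces2e window held only a GC box on the minus strand, at -72 to -67, and the Cyp2b10 window held AHR cores at -101 to -97 (minus strand) and -9 to -5. Neither the Ephx1 nor the Ces2e window matched the p53 decamer or the antioxidant core. Among the 9 members with a window (none was found for Ces1d), the p53 decamer matched Cyp2f2 alone, and it matched 8.36% of all 32851 windows. The GC box matched 35.7% of all windows, the AHR core 32.4%, TATAAA 13.6% and the antioxidant core 12.4%.

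Whether a probe was above background was judged against a limit of log2 7.89, drawn from the values themselves. Probes above it on at least 3 arrays were tested, 18637 probes of 13402 genes. Of the 10 members, 9 were tested. Cyp1a1, the P450 induced by aryl hydrocarbons, was above the limit on 0 of 24 arrays (log2 signal 6.95 to 7.45) and has no test. Ces2e was above it on 15 arrays and the other 8 genes on all 24. A gene with several probes is given by its brightest, and the signals of different probes are not compared.

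The lung was checked by its markers. Scgb1a1 of club cells (log2 signal up to 16.08, median 16.04), Sftpc of alveolar type 2 cells (15.91 to 16.08) and Ager of alveolar type 1 cells (15.76 to 15.98) were high on every array. They lay near the highest signal of the arrays, 16.10, where little difference between mice can be seen. The probes of 2 other listed markers, Cckar of club cells and Hopx of type 1 cells, were above the limit on 0 arrays. A marker score is the mean of a mouse's log2 signals for a list minus each gene's median over the mice. For hepatocyte markers this score reached 5.87 in mouse 4, a female of the AIRmax urethane group, and no other mouse exceeded 0.68. In mouse 4, 20 of the 24 hepatocyte markers on the array lay above every other mouse by more than 1 on the log2 scale. Apoa1 (15.93), Ttr (15.98) and Serpina1b (16.05) stood out in mouse 4, but the probes of Alb and Fgb were at or below the limit on every array, mouse 4 included. The skeletal muscle score of mouse 4, 2.70, was the highest of all mice, and its squamous epithelium score was 3.52. Its ciliated cell score, -0.60, was the lowest of all mice. Its club cell score was -1.14, where the lowest of all mice was -1.16. The squamous score exceeded 1 in 9 mice, namely 2 AIRmax urethane, 2 AIRmin urethane and 5 AIRmin saline mice. The library labelled mouse 20, AIRmin female saline, goes against its sex label: Xist was 7.91 there, against 10.46 to 12.34 in the other females and 7.74 to 8.06 in males, and the Y-linked Eif2s3y was 11.38, against 7.20 to 7.46 and 10.94 to 11.64. No member was called between the sexes with all mice or without mice 4 and 20.

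Cyp2e1 stood out in mouse 4 and in no comparison. Its log2 signal was 15.91 in mouse 4. The other AIRmax urethane mice lay between 11.33 and 12.78 with a median of 11.68, AIRmax saline mice between 11.15 and 12.66 with a median of 11.89. AIRmin urethane mice lay between 11.10 and 12.89 with a median of 12.44, AIRmin saline mice between 11.27 and 12.78 with a median of 11.87. Apart from mouse 4, all 4 groups overlapped. Urethane minus saline over all mice was 0.43 ± 0.39 (log2, SE, adjusted p = 0.704, limma), and without mouse 4 it was 0.08 ± 0.23 (adjusted p = 0.912). Within AIRmax, the difference was 0.60 ± 0.56, and -0.11 ± 0.34 without mouse 4, where the 95% interval ran from -0.83 to 0.60. AIRmax minus AIRmin was 0.09 ± 0.39 with mouse 4 and -0.26 ± 0.23 without it (adjusted p = 0.916 and 0.501, limma). Cyp2e1 was the member whose highest value belonged to mouse 4. Cyp2a5 of mouse 4 (14.32) ranked second of 24, while its Cyp2b10 (14.51) and Cyp4b1 (13.48) ranked 22 of 24.

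**Figure D1:**
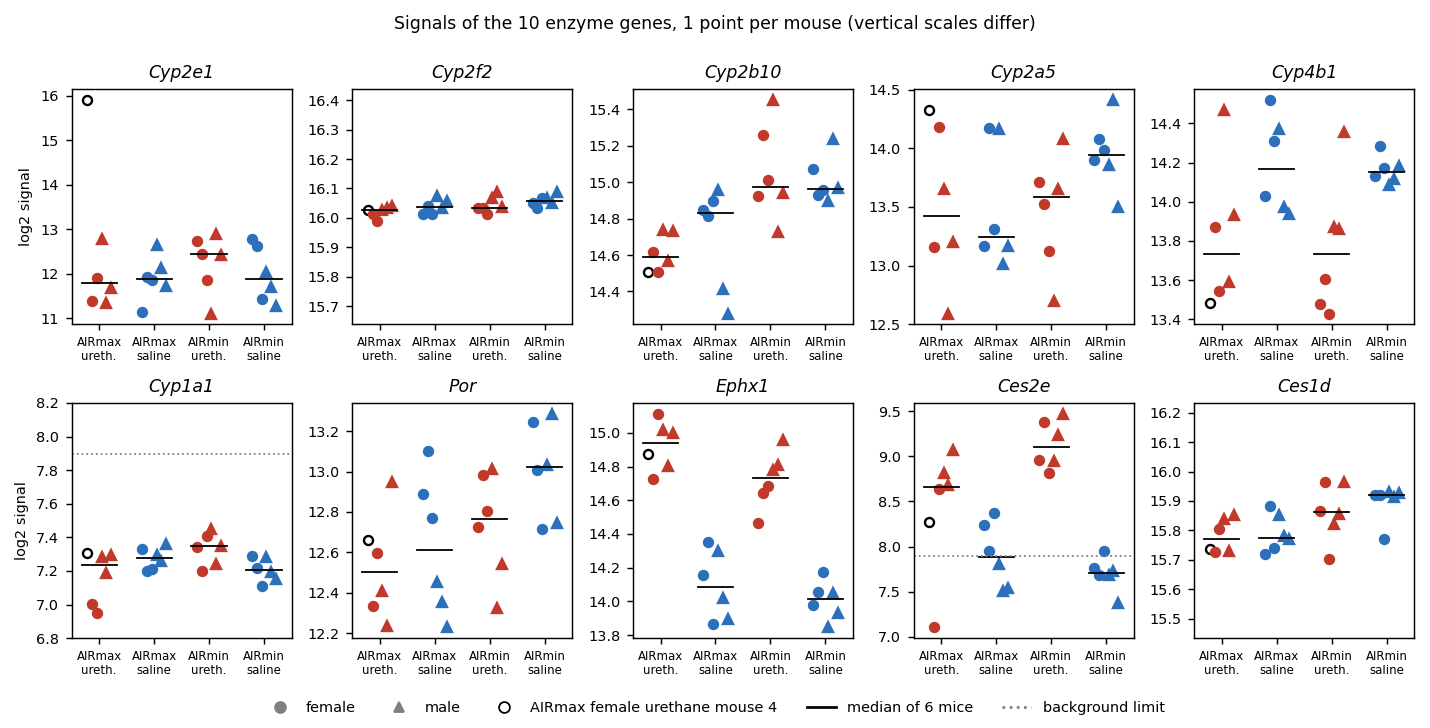
Log2 signal of the 10 genes by mouse (vertical axis; scales differ) in AIRmax urethane, AIRmax saline, AIRmin urethane and AIRmin saline mice, 6 per group, circles female and triangles male, black lines medians and dotted lines the background limit of 7.89. Mouse 4 (open circle) has the Cyp2e1 signal of 15.91, all urethane mice lie above all saline mice for Ephx1, and Cyp1a1 stays below the limit.

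After urethane, 2 of the 9 tested members rose over all mice, Ephx1 and Ces2e, where 0.492% of all tested genes were called higher and 0.254% lower. The median difference was -0.02 over the members and -0.00 over all tested genes. Ephx1, which hydrolyses epoxides, had log2 signals of 14.46 to 15.11 (median 14.80) in the 12 urethane mice and of 13.84 to 14.35 (median 14.04) in the 12 saline mice. No urethane mouse overlapped a saline mouse, which held for 0.0672% of all genes in this direction. The difference was 0.77 ± 0.06 on the log2 scale, or 1.71-fold (adjusted p = 4.64e-07). In bulk lung, more cells of a type and more RNA per cell cannot be told apart.

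Ephx1 rose in each line. In AIRmax, urethane mice had 14.72 to 15.11 and saline mice 13.86 to 14.35, a difference of 0.82 ± 0.09 (adjusted p = 4.58e-05). In AIRmin, urethane mice had 14.46 to 14.96 and saline mice 13.84 to 14.18, a difference of 0.72 ± 0.09 (adjusted p = 3.44e-04). The groups of each line did not overlap, as held in this direction for 0.231% of all genes in AIRmax and 0.806% in AIRmin. The lines' effects differed by 0.11 ± 0.13 (95% interval -0.16 to 0.37, adjusted p = 0.922). Without mouse 4 the AIRmax difference was 0.83 ± 0.10 (adjusted p = 1.46e-04). In the additive model over the 15 mice with squamous scores at or below 1, with 1 AIRmin saline mouse, Ephx1 was higher after urethane by 0.84 ± 0.10.

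Ces2e, a carboxylesterase of the CES2 family, rose by 0.98 ± 0.13 on the log2 scale over all mice (adjusted p = 3.36e-04). AIRmin urethane mice had log2 signals of 8.81 to 9.47 (median 9.10), and AIRmin saline mice had 7.37 to 7.95 (median 7.71), with 1 of 6 above the limit. These groups did not overlap, as held for 0.806% of all genes in this direction. The AIRmin difference was 1.44 ± 0.19 (adjusted p = 4.62e-04). With 5 of the 6 saline mice at or below the limit, it is a difference of measured signals and gives no exact fold. In AIRmax, urethane mice had 7.11 to 9.07 (median 8.66) and saline mice 7.51 to 8.37 (median 7.88), and the groups overlapped. That difference, 0.53 ± 0.19, did not pass (adjusted p = 0.381). Its call depended on mouse 5, an AIRmax female urethane mouse at 7.11: without mouse 5 it was 0.75 ± 0.13 (adjusted p = 0.0110). In the additive model over the 15 mice with squamous scores at or below 1, Ces2e was higher after urethane by 0.76 ± 0.29. That fit held only 1 AIRmin saline mouse, so it cannot tell the part of squamous tissue from the loss of mice.

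The difference of urethane effects between the lines was -0.91 ± 0.26 for Ces2e (AIRmax minus AIRmin; unadjusted p = 0.00263, adjusted p = 0.672). A different response of Ces2e in the lines is therefore not shown. No probe passed this test with limma (0 of 18637, or 0% of genes, with 1169 at an unadjusted p under 0.05). Of the members, 1 rose in AIRmax, where 0.157% of all genes were called higher, and 2 rose in AIRmin, where 0.216% were.

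The P450s showed no call after urethane. Cyp4b1, which oxidizes furans and fatty acids and is abundant in club cells, came nearest: urethane mice had 13.43 to 14.47 (median 13.73) and saline mice 13.94 to 14.52 (median 14.15), so that the groups overlapped. The difference was -0.38 ± 0.09 (95% interval -0.58 to -0.19, adjusted p = 0.0621), of like size in AIRmax (-0.38 ± 0.13) and AIRmin (-0.39 ± 0.13). It passed when mouse 1, 5, 11 or 15 was left out (limma, adjusted p of 0.0101 to 0.0486). It also passed with array weights (adjusted p = 0.0352) or the squamous score as a covariate (adjusted p = 0.0475). In the additive model over the 15 mice of low squamous score, with 1 AIRmin saline mouse, the difference was -0.21 ± 0.15. Scores of club cell markers were -1.16 to 0.43 (median -0.10) in urethane mice and -0.30 to 0.53 (median 0.13) in saline mice. With that score as a covariate, the Cyp4b1 difference was -0.42 ± 0.11 (limma, adjusted p = 0.0835). Within groups of line, sex and treatment, over 23 mice without mouse 4, the score and Cyp4b1 gave r = -0.374 and rho = -0.538. Neither passed (permutation within groups, adjusted p = 0.34 and 0.187). The part of club cells in the Cyp4b1 difference was not tested further.

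**Figure D2:**
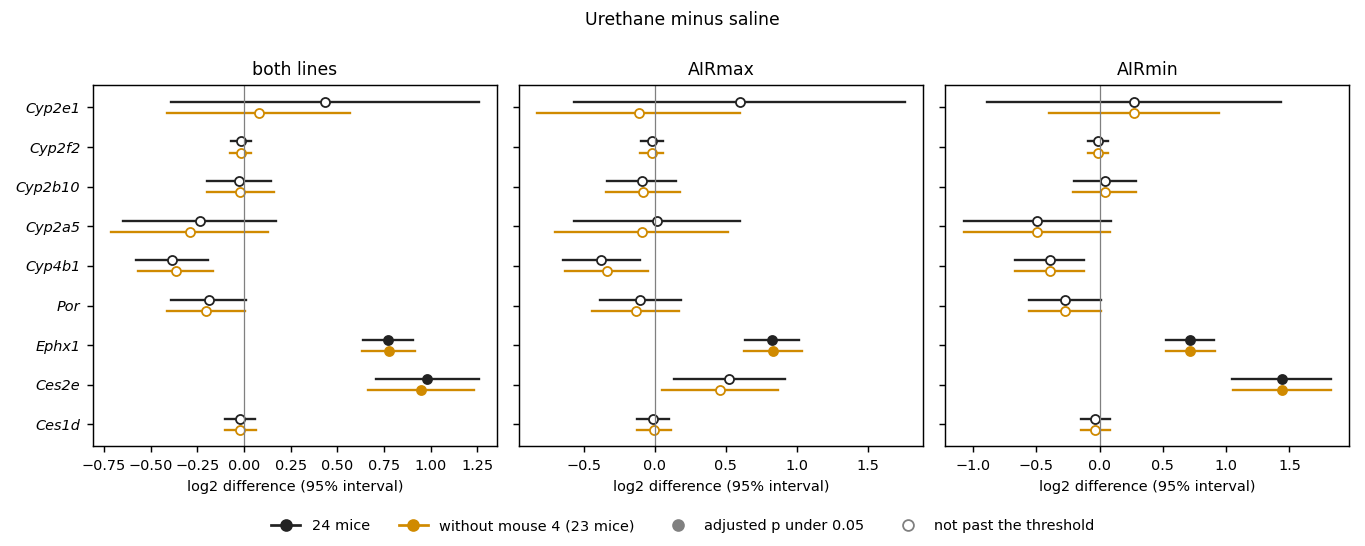
Log2 difference, urethane minus saline, of the 9 tested genes with 95% intervals (horizontal), in both lines together, in AIRmax and in AIRmin; black is all 24 mice, orange without mouse 4, and filled points pass an adjusted p of 0.05. Ephx1 is filled in all 3 panels, Ces2e in both lines together and AIRmin, and Cyp2e1 has the widest interval.

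Cyp2f2, which activates naphthalene and other compounds in mouse club cells, had a log2 signal between 15.99 and 16.09 in all 24 mice. The highest signal on the arrays was 16.10, and Ces1d (15.70 to 15.97) also lay near that top of the scale, where differences are measured over a narrow range. Their differences after urethane were -0.02 ± 0.03 and -0.02 ± 0.04. Cyp2f2 had the smallest spread within cells of line, sex and treatment, an SD of 0.0171 without mouse 4, and Cyp2e1 and Cyp2a5 the largest of the members, 0.611 and 0.522. The median SD over all tested genes was 0.153.

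Cyp2a5, the coumarin hydroxylase, had log2 signals of 12.70 to 14.08 (median 13.59) in AIRmin urethane mice and of 13.50 to 14.42 (median 13.94) in AIRmin saline mice, a difference of -0.49 ± 0.28 that did not pass (adjusted p = 0.573). In AIRmax the difference was 0.02 ± 0.28 (adjusted p = 0.993), and the groups of each line overlapped. Its 4 probes gave the same sign over all mice, -0.24 to -0.19.

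Between the lines, Cyp2b10 was lower in AIRmax at its brighter probe. Cyp2b10, a P450 induced through the receptor CAR, had log2 signals of 14.28 to 14.96 (median 14.67) in the 12 AIRmax mice and of 14.73 to 15.45 (median 14.96) in the 12 AIRmin mice, which overlap. The difference of -0.38 ± 0.08 (adjusted p = 0.00488, limma) was the only one of 9 that passed. Of all genes, 13.5% were called in either direction and 7.08% lower, so 1 call of 9 does not set the members apart. The second Cyp2b10 probe gave -0.19 ± 0.10 and did not pass (adjusted p = 0.206). In the additive model over the 15 mice of low squamous score, with 1 AIRmin saline mouse, the Cyp2b10 difference was -0.52 ± 0.14. Among urethane mice, AIRmax mice lay at 14.51 to 14.74 and AIRmin mice at 14.73 to 15.45, a difference of -0.44 ± 0.12 (adjusted p = 0.0387), and without mouse 4 it no longer passed (-0.43 ± 0.13, adjusted p = 0.0636; 1.72% of all genes called lower). The call was lost in 9 of the 24 fits that left out 1 mouse. Among saline mice the difference was -0.31 ± 0.12 (adjusted p = 0.128). In the urethane comparison 2.17% of all genes were called lower, and in the saline comparison 7.01% were called in either direction. Across the 23 mice without mouse 4, the deviations of Cyp2b10 from its cell means followed those of Cyp2b23, a related lung P450 (r = 0.889). Probe sequences were not given, so whether probes of the Cyp2b, Cyp2a and Ces families also detect related genes was not checked. The Cyp2b10 and Cyp2b23 signals may therefore not be independent.

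Por, which passes electrons from NADPH to the P450s, had log2 signals of 12.23 to 13.10 (median 12.52) in AIRmax and of 12.32 to 13.29 (median 12.89) in AIRmin. The line difference was -0.29 ± 0.10 (adjusted p = 0.0548), just outside the threshold, and it passed without mouse 4 (-0.30 ± 0.10, adjusted p = 0.0454), where 8.31% of all genes were called lower. It passed as well without mouse 14, 16, 19 or 23. Its other brighter probe gave -0.30 ± 0.11 and its dim probe -0.06 ± 0.08, and neither passed.

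Ces2e was lower in AIRmax among urethane mice, with a difference of -0.70 ± 0.19 (adjusted p = 0.0401): AIRmax urethane mice had 7.11 to 9.07 and AIRmin urethane mice 8.81 to 9.47. The call was lost in 8 of the 24 fits that left out 1 mouse. Ephx1 differed by 0.14 ± 0.06 and Cyp4b1 by 0.04 ± 0.09 between the lines over all mice, and neither passed. No member passed between the sexes (0.119% of all genes did), where Por came nearest at 0.19 ± 0.10 in female minus male mice (adjusted p = 0.427).

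**Figure D3:**
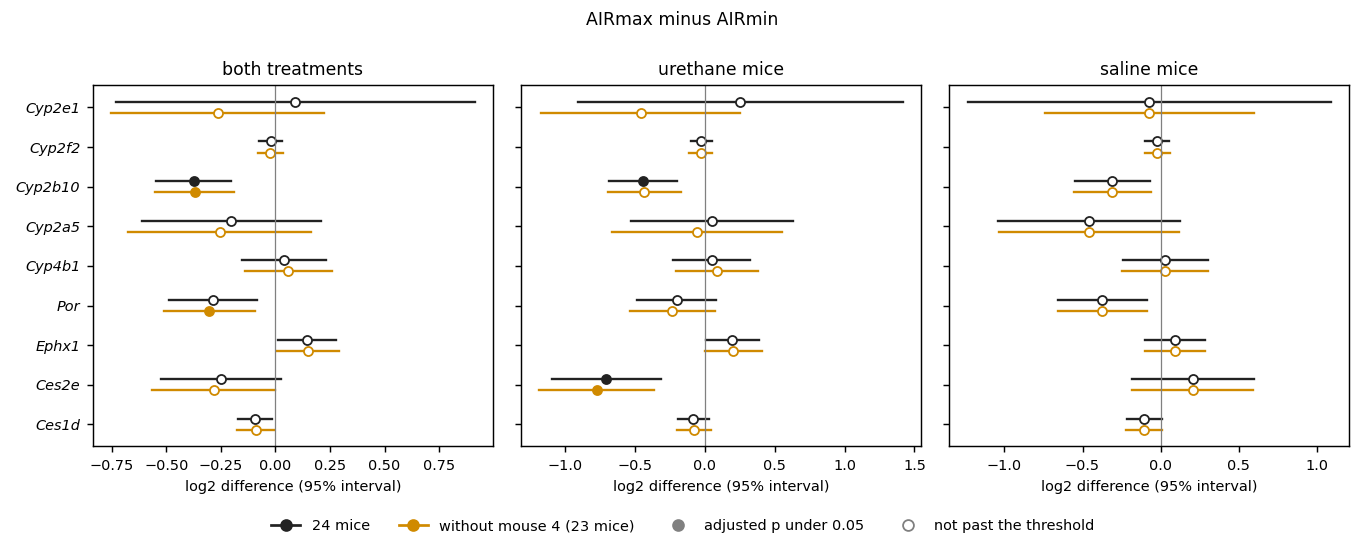
Log2 difference, AIRmax minus AIRmin, of the 9 tested genes with 95% intervals (horizontal), over both treatments, in urethane mice and in saline mice; black is all 24 mice, orange without mouse 4, and filled points pass an adjusted p of 0.05. Cyp2b10 lies left of 0 in all 3 panels and Ces2e in urethane mice.

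How the members varied within groups was described over 23 mice, without mouse 4, from each mouse's deviation from the mean of its line, sex and treatment. Over 72 relations (36 between members and 36 with marker scores), Cyp2e1 rose with the adipocyte marker score (r = 0.807, rho = 0.845, permutation within groups, adjusted p = 0.0302 and 0.0158). Without the 2 mice farthest from the median score, r was 0.715. Cyp2a5 rose with Ces1d (r = 0.648, rho = 0.703, permutation within groups, adjusted p = 0.041 and 0.0365), and r was 0.625 without the 2 farthest mice. The Ces1d signals lay near the top of the scale, and their deviations ran only from -0.143 to 0.121. Cyp2e1 and Cyp2a5 gave r = 0.702 and rho = 0.698 (adjusted p = 0.0528 and 0.0365), which passes only by rank. The adipocyte marker Adipoq was above the limit on all 24 arrays (10.14 to 12.92), as were Cidec, Cfd, Thrsp, Cidea, Car3 and Lipe. Of the other markers in that list, Ucp1 was above it on 23 arrays, Lep on 21 and Plin1 on 19. Retn was above it on 9, Pck1 on 3 and Fabp4 on 0. The mouse-to-mouse pattern of Cyp2e1 was most like that of Cfd (r = 0.913), Ephx2 (0.892) and Aqp7 (0.872), of which Cfd, adipsin, is itself in the adipocyte list and Aqp7 is a glycerol channel of adipocytes.

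**Figure D4:**
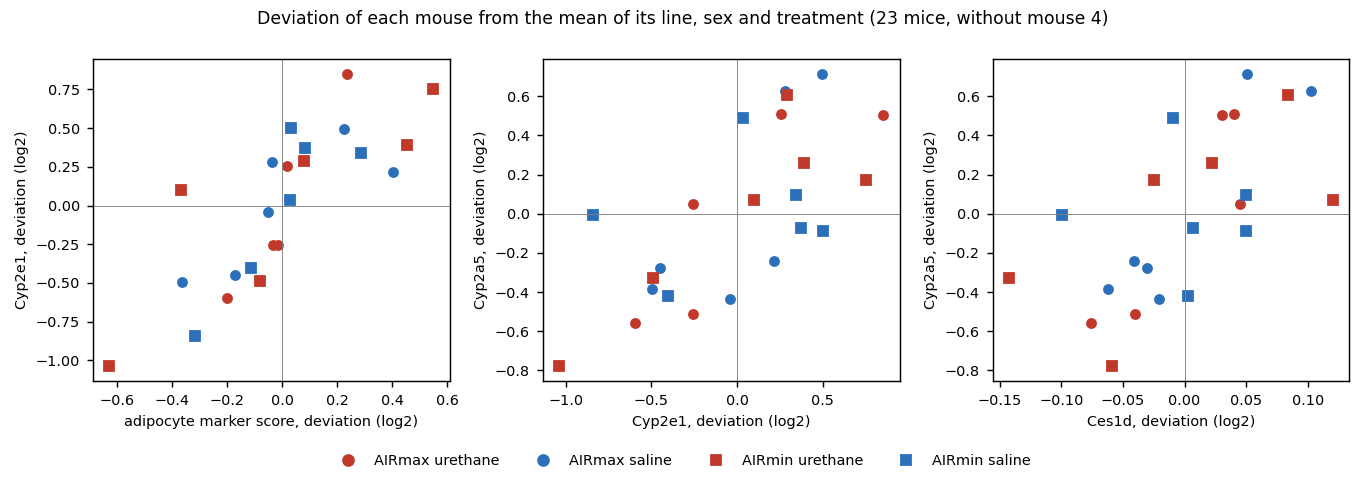
Deviation of each of 23 mice from the mean of its line, sex and treatment (log2): Cyp2e1 against the adipocyte marker score, Cyp2a5 against Cyp2e1 and Cyp2a5 against Ces1d, circles AIRmax and squares AIRmin, red urethane and blue saline. Points rise together in the 3 panels, with Pearson's r of 0.807, 0.702 and 0.648.

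The other members' patterns were likewise described by the genes with the highest correlation over these 23 mice, with no p. Cyp4b1 was most like Cyp2d22 (r = 0.827), Atp6v1e2 (0.826) and Selenbp2 (0.825). Por was most like Sema3b and Slc52a2 (0.936 each), Ephx1 like Bbof1 (0.831) and Ces1d like Ptpdc1 (0.871).

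Beyond the members, 109 other tested genes of the surrounding pathways were read from lists of other P450s, electron transfer and haem supply, carboxylesterases, epoxide hydrolases and glutathione transferases, conjugating enzymes, receptors, and the removal of etheno DNA adducts. After urethane, 0 of the 109 were called over all mice by limma, beside 0.746% of all genes. The nearest, Gstp1, a glutathione transferase, differed by -0.24 ± 0.06 (adjusted p = 0.0986), and by -0.27 (adjusted p = 0.0401) without mouse 4. Between the sexes, 0 of the 109 were called over all mice. The glutathione transferase Gsta3 differed by -0.39 in female minus male mice (limma, adjusted p = 0.136). Without mouse 4 it passed, at -0.46 (adjusted p = 0.0421).

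Between the lines, 23 of the 109 were called, 5 higher and 18 lower in AIRmax (21.1%), beside 13.5% of all genes. With the squamous score as a covariate, 13 of them stayed called. The share of all genes called in that fit is not given, so the kept counts here and below are not set against it. Squamous scores were -0.27 to 3.52 (median -0.17) in AIRmax and -0.22 to 3.76 (median 2.70) in AIRmin, so they moved with the line, and their part in these differences was not tested beyond that fit.

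Of 17 tested genes for electron transfer and haem supply, 4 were lower in AIRmax and Cyb5r3, a cytochrome b5 reductase, was higher (0.24). Cyb5r3 did not pass with the squamous score (0.18, adjusted p = 0.201) or at its 2 other probes (0.15 and 0.14, adjusted p = 0.186 and 0.276). Alas1, the rate-limiting enzyme of haem synthesis, averaged 15.15 ± 0.15 in AIRmax and 15.55 ± 0.10 in AIRmin (SD, n = 12 each), a difference of -0.40 ± 0.04 (adjusted p = 4.97e-06, limma). Alad, the next enzyme, differed by -0.68 and the haem-degrading Hmox1 by -0.36, and Pgrmc1, a partner of P450s, by -0.30, which did not pass with the squamous score (adjusted p = 0.0717). The later enzymes of haem synthesis Cpox (-0.04), Urod (0.00), Ppox (0.02) and Fech (0.02) did not pass. Of 13 other P450s, Cyp1b1 (-0.43) and Cyp2b23 (-0.38) were lower in AIRmax. Cyp1b1 is, with Nqo1 (-0.36) and Ugt1a6a (-0.29), also among the AHR targets, where 3 of 13 listed genes were lower. Arnt, the AHR partner, was higher (0.14), though its other probe gave -0.00. The other Ugt1a6a probes gave -0.41 and 0.02 and did not pass (adjusted p = 0.102 and 0.94, limma). With the squamous score, Nqo1, Ugt1a6a and Arnt did not pass (adjusted p = 0.129, 0.251 and 0.0674), so that 1 of these 4 calls was kept.

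Of 24 glutathione transferases and epoxide hydrolases, 7 were lower in AIRmax and 0 higher, beside 7.08% of all genes called lower, and 4 of the 7 stayed called with the squamous score. Gsta1 had 7.26 to 9.07 (median 7.54) in AIRmax, with 2 of 12 mice above the limit, and 7.55 to 9.66 (median 8.63) in AIRmin, with 8 of 12 above it, so that its difference has no exact size. With the squamous score it did not pass (adjusted p = 0.235). Gsta2 (-0.72), Gsto1 (-0.58) and Gsta4 (-0.49) passed with that score. Of 24 conjugating and oxidizing enzymes, 4 were lower, Aox3, an aldehyde oxidase (-0.42), Nqo1, Sult2b1 (-0.34) and Ugt1a6a. Aox3 alone passed with the squamous score (limma, adjusted p = 0.0335). The other Sult2b1 probes gave -0.29 (adjusted p = 0.0175) and -0.18, which did not pass (adjusted p = 0.0760).

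Of 9 other esterases, Ces2g was higher in AIRmax by 0.69 (0.59 at its other probe) and Pon3, a lactonase, differed by -0.33 (adjusted p = 0.0454, and 0.0577 with the squamous score), while its 2 other probes gave -0.08 and -0.14 (adjusted p = 0.654 and 0.293). Esd, S-formylglutathione hydrolase, was higher by 1.21 at its brightest probe, while its 3 other tested probes gave 0.01 to 0.05 and did not pass. Of 12 genes for the removal of etheno adducts, Mpg, the glycosylase that excises ethenoadenine, was higher in AIRmax: AIRmax mice had 9.20 to 9.60 (median 9.46) and AIRmin mice 7.75 to 9.33 (median 7.89), with 12 and 6 mice above the limit. The difference over all mice was 1.16 ± 0.11 (adjusted p = 5.70e-07), and 0.73 ± 0.08 at its other probe (adjusted p = 7.56e-06). Among urethane mice Mpg averaged 9.44 in AIRmax and 8.63 in AIRmin. Saline mice averaged 9.44 in AIRmax and 7.94 in AIRmin, where 4 of 6 AIRmin mice were at or below the limit. No probe passed the limma test of the difference of urethane effects (0 of 18637). A line difference of Mpg that depends on treatment is therefore not shown.

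**Figure D5:**
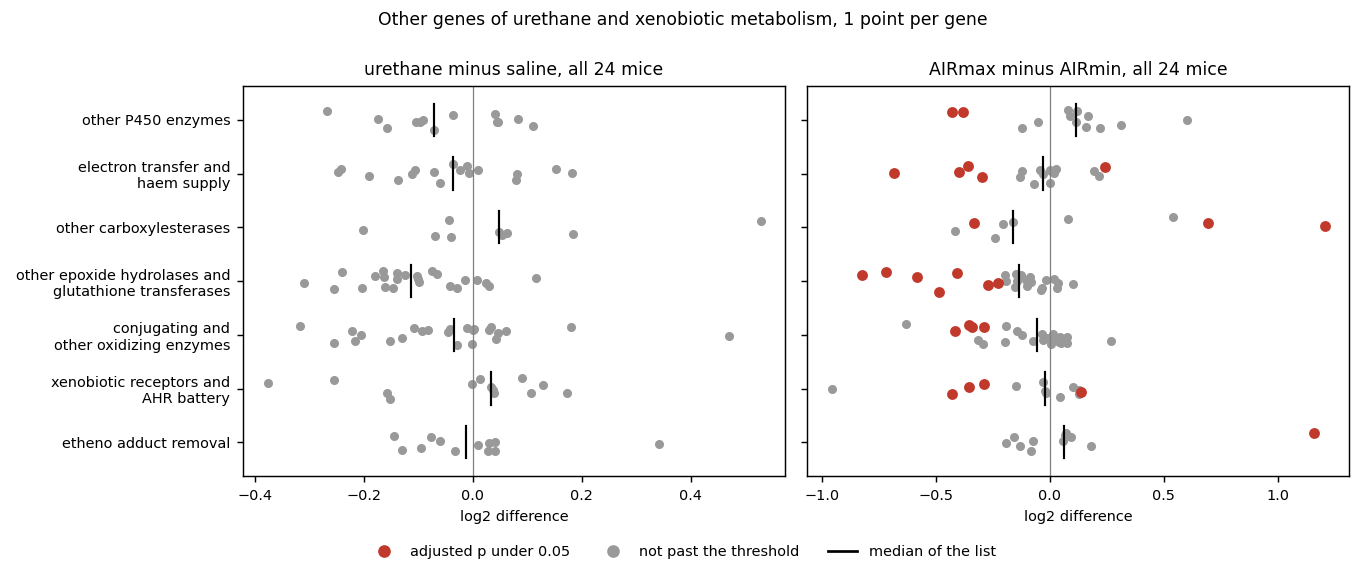
Log2 difference of each tested gene of 7 lists (horizontal; 1 point per gene, vertical scatter only separates points), urethane minus saline and AIRmax minus AIRmin over all 24 mice; red points pass an adjusted p of 0.05 and black bars are list medians. No point is red after urethane, and 23 genes are red between the lines, some of them in more than 1 list.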

How the data were processed

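Lung RNA of 24 mice was hybridised to Illumina arrays, and the deposited value table holds intensities on a linear scale. Its sorted values differ by at most 0.871% between arrays, so the arrays share nearly 1 distribution; they were treated as normalized, and log2 was taken with no further step. The submitters' processing notes name BeadStudio. The 72 per-array columns of the other deposited tables carry slide names that match no label and were not used; slide could not be tested as a batch. Their symbols were updated with RefSeq. A mean was fitted for each of 8 cells of 3 mice with limma 3.58.1 in R 4.3.3, the Benjamini-Hochberg adjustment ran across 18637 probes, with 0.05 as the threshold. The steps were tested on simulated data. Named genes are the members, up to 4 called genes per list in each all-mice comparison and the 3 genes most like each member; a selection is printed. Alternatives included leaving out each mouse, other filters, array weights, normexp correction and marker scores as covariates. The members and lists were chosen with earlier results of these data known. The number of arrays limits the precision.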

Additional observations from a re-analysis of the deposited data

Results flagged for a closer look

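Of 36 groups of 6 mice, 2 held a mouse far from the other 5; chance alone marks about 1 group in 20. Cyp2e1 of mouse 4 among AIRmax urethane mice was 15.91, against 12.78 for the nearest mouse. Ces1d of mouse 23 among AIRmin saline mice was 15.77, where the nearest mouse had 15.91 and the highest 15.93.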

How the results depend on the processing

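No member reversed a called direction. Ephx1 stayed called after urethane over all mice in all 24 fits without 1 mouse and all 16 other alternatives, and Ces2e stayed called in AIRmin in all 24 and all 15. Over all mice, Ces2e stayed called in all 24 fits and in 15 of the 16 other alternatives. Alternatives without mice 4 and 20, without mice 4 and 5, and the additive model with all mice were chosen after seeing the data. Among urethane mice, 2 members differed between the lines; 1 did with no filter, no sex term, array weights, normexp, the hepatocyte score, the second probes, or without mice 4 and 20, and 0 did with only the arrays compared, the club cell score, or without mice 4 and 5. Over all mice, 1 member differed between the lines; 3 did with array weights, 2 with the trended robust prior or the squamous score, and 0 with second probes or in the additive model over mice of low squamous score. Among saline mice 0 did, and 2 did with array weights. After urethane, 2 members were called over all mice, 1 in the additive model over mice of low squamous score, and 3 with array weights, the squamous score or without mouse 1, 5, 11 or 15. In AIRmax 1 was called, and 2 without mice 4 and 5. Leaving out 1 mouse gave 0 to 2 line calls in urethane mice, 1 to 2 over all mice, 0 to 1 in saline mice, and 1 to 2 urethane calls in AIRmax; the urethane-mice count changed without mouse 1, 2, 4, 6, 7, 8, 11, 13, 14, 15, 16, 17 or 21, and the saline count without mouse 9. The cause was not tested.

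Counts of probes called moved by over 1.5 times. With array weights they were 499 after urethane (133 in the chosen fit), 67 in AIRmax (38), 178 in AIRmin (48), 3748 between the lines (2411), 3052 in saline mice (1244) and 61 between the sexes (21). With only the arrays compared they were 20 in AIRmax and 341 between the lines in urethane mice (664). The hepatocyte score gave 203 after urethane. The squamous score gave 26 in AIRmin and 283 between the lines in saline mice. The additive model over mice of low squamous score gave 35 after urethane, 661 between the lines and 8 between the sexes, and with all mice 13 between the sexes. The additive model over mice of low squamous score held 1 AIRmin saline mouse. It was not run within lines or treatments or for the difference of effects. No paired analysis was possible because each mouse has its own number. Signals near the top of the scale (Cyp2f2, Ces1d) and near background (Ces2e, Cyp1a1) limit what can be seen.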

Other observations

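Mpg did not vary evenly among the 12 AIRmin mice, a pattern noticed after its values were seen. At its brighter probe, 7 mice lay between 7.75 and 7.91, and mouse 23 (8.42), mouse 7 (8.81), mouse 13 (8.94), mouse 8 (9.06) and mouse 17 (9.33) lay above them. Mice 7, 8 and 17 were the 3 AIRmin urethane females, mouse 13 was a urethane male and mouse 23 a saline female. In AIRmin, urethane minus saline for Mpg was 0.69 ± 0.15 (log2, SE, adjusted p = 0.0844, and 0.0622 without mouse 4, limma), which did not pass. The same 5 mice were the highest at the other probe, at 8.54 to 8.87, where the other AIRmin mice had 7.93 to 8.24. The 12 AIRmax mice lay between 9.20 and 9.60 at the brighter probe and between 8.86 and 9.17 at the other.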
